A study of Mus musculus with 25 samples.

Results

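Matrix metalloproteinases and their tissue inhibitors were followed in lung cells at 3 and 6 weeks after bleomycin. The 10 genes were taken by name: the metalloproteinases Mmp2, Mmp3, Mmp11, Mmp14, Mmp19 and Mmp23 and the inhibitors Timp1, Timp2, Timp3 and Timp4. They are 10 of the 47729 genes in the bulk count table, and all 10 were among the 15773 genes that passed the filter on low counts. All 10 also had a row in the single-cell matrices of 31053 genes. No threshold on a measured value was used to choose them.

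The cells were lung cells sorted by flow cytometry as negative for CD45, CD31 and CD326, which removes most leukocytes, endothelial cells and epithelial cells. Bulk RNA-seq gave 20 libraries in 5 groups of 4. The first group was naive, and the others were Fas+/+ or Fas-/- and were taken 3 or 6 weeks after intratracheal bleomycin at 1.5 U/kg. All mice, naive ones included, carried Col1a1-Cre-ERT2 and floxed Fas alleles, in which exon 9 is flanked by loxP sites. Those called Fas-/- received 6 injections of tamoxifen at 0.25 mg/g between days 4 and 21, and those called Fas+/+ received corn oil. Genotype and tamoxifen therefore cannot be told apart. The Cre is driven by the Col1a1 promoter, so the deletion is directed at cells that express Col1a1 and not at every sorted cell. What the naive mice received and the ages were not stated. Nothing in the labels says which animals gave a bulk library. The study states that its n counts individual animals, and gives n = 4 for bulk RNA-seq. The p-values measure the spread between these libraries. Single-cell RNA-seq gave 1 library for each of the same 5 conditions, each from 4 pooled mice, and these have no replicates.

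The metalloproteinases are zinc enzymes that cut collagens, proteoglycans and other parts of the extracellular matrix, and are made as inactive precursors. TIMP proteins bind their active sites. The membrane enzyme encoded by Mmp14 activates the Mmp2 product in a complex that also holds the Timp2 product, so this inhibitor takes part in activation as well as in inhibition. In fibrotic lung, fibroblasts are a main source of both the matrix and these enzymes.

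Total counts per bulk library ran from 11819700 to 25189096. Among the bleomycin-instilled libraries, week 3 Fas+/+ replicate 1 and week 3 Fas-/- replicate 4 stood apart, with 9609 and 8599 CPM summed over 9 blood endothelial markers, where CPM is a count scaled to a common library size. The other libraries of these groups had 2514 to 3367 and 744.6 to 1200, and naive libraries 173 to 471.2. At week 6, replicate 2 was highest in each genotype, at 1853 CPM in Fas+/+ beside 496.6 to 1180 and at 2772 CPM in Fas-/- beside 140.6 to 463. Summed CPM of 5 erythroid markers were 2979 to 9589 in naive libraries and 17.07 to 234.8 in all others. The 6 hematopoietic markers summed to 2.455 to 4.537 CPM in naive libraries, to 28.44 to 133.7 in week 3 libraries and to 130.1 in week 6 Fas+/+ replicate 2, with 3.309 to 8.926 in the other week 6 libraries. The 10 epithelial markers summed to 51.99 to 128.9 CPM in naive, 211.2 to 705.6 in week 3 Fas+/+ and 265.9 to 440.4 in week 3 Fas-/- libraries. At week 6 these sums were 524.4 to 1485 in Fas+/+ and 141.7 to 405.9 in Fas-/-. The 6 lymphatic endothelial markers summed to 8.978 to 22, 264.6 to 403.4, 98.92 to 553.5, 28.57 to 148.9 and 8.041 to 313.5 CPM in the same order of groups. The part of these cells in the results below was not tested, beyond the values given without the endothelial-rich libraries. Fas itself was measured at 41 ± 11.3 CPM in week 3 Fas+/+ and 44.2 ± 14.2 CPM in week 3 Fas-/- libraries (SD, n = 4). At week 6 it was 31.4 ± 6.24 and 40.4 ± 4.59 CPM, and neither difference was called (adjusted p of 0.91 and 0.719, edgeR). These counts span all exons and so do not check the loss of exon 9. In single cells, Fas was 0.687 and 0.432 per 10000 unique molecules in the libraries labelled week 3 Fas+/+ and Fas-/-. It was 0.9998 and 0.668 in those labelled week 6, and 0.556 in the naive library. With 1 library for each condition these values have no replicate check, and they do not resolve exons either.

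The week labels of the single-cell libraries went against those of the bulk libraries. Of 397 genes called lower at week 6 than at week 3 in bulk in both genotypes, 392 were higher in the single-cell library labelled week 6 Fas+/+ than in that labelled week 3 Fas+/+, and 388 in the Fas-/- pair. Of 486 genes called higher at week 6 in bulk, 475 and 460 were lower in the libraries labelled week 6. Which assay carries the right labels was not determined, so single-cell libraries are named below by their labels only, and no change over time is drawn from them. Weeks of the bulk libraries below are also those of their labels. Every bulk result that names a week, or a rise or fall between weeks, holds only if these labels are right.

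In GRCm38, Timp1 lies at chrX:20870166-20874735 on the plus strand, inside an intron of Syn1, which is read from the other strand. Timp3 (chr10:86300372-86349506) and Timp4 (chr6:115241892-115252205) lie within the bounds of Syn3 and Syn2 in the same nested arrangement, and share 1733 and 90 exonic bases with them. Mmp14 lies at chr14:54431612-54445364, Mmp2 at chr8:92827291-92853420 and Timp2 at chr11:118301069-118355740. The library kit kept strand, but the strand setting of the counting was not stated, so reads of overlapping genes may be mixed. Over the 5 groups, mean levels were 1.246 to 4.512 CPM for Syn1, 45.65 to 91.84 CPM for Syn2 and 2.399 to 5.337 CPM for Syn3. Per kilobase of exon, Syn2 exceeded Timp4 in naive libraries (7.186 against 1.753 CPM per kilobase), while Syn1 (0.3778) and Syn3 (0.3473) were far below Timp1 (24.59) and Timp3 (358.6). Syn1 was itself higher at week 3 than in naive in both genotypes (log2 fold changes of 1.84 and 1.61, SE 0.45 each, adjusted p of 0.00366 and 0.0114, edgeR), and Syn3 lower (-0.82 and -0.82, SE 0.30 and 0.29), as Timp1 and Timp3 were. Syn2 was higher in week 6 Fas-/- than in naive (0.86, SE 0.18, adjusted p = 0.00735, edgeR), where Timp4 was lower. Whether reads of one gene were counted for the other was not tested.

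RefSeq promoters, taken as 250 bases before to 50 after the start, were found for 8 of the 10 genes (not for Mmp2 and Mmp19). The 250 bases before the start were searched on both strands for AP-1 (TGANTCA), TEAD (GGAATG), SMAD (CAGACA) and ETS (CGGAAG) motifs. Factors of these families act in injured fibroblasts. Matches are shown in capitals with the bases around them, from GRCm38, plus strand, because they fall on 3 of the genes whose levels differed between groups. The windows are chrX:20869916-20869954, chr14:54431372-54431437 and chr9:7445746-7445812.
Timp1: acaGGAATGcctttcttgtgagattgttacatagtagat
Mmp14: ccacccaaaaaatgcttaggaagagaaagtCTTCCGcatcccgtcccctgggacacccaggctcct
Mmp3: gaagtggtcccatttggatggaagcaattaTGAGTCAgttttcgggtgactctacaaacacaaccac
The TEAD match begins 247 bases before the start of Timp1, the ETS match (on the minus strand) 196 bases before Mmp14, and the AP-1 match 46 bases before Mmp3. Of 32851 promoters searched over the same 250 bases, 6.75% held the AP-1 letters, 12.6% the TEAD, 17.1% the SMAD and 13.6% the ETS letters, so such matches are common. No other match was found in these 250 bases of the 8 genes, and the 50 bases after the start were not searched.

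Timp1, a secreted inhibitor and a usual marker of fibrosis, moved most. In naive libraries it was measured at 15.94, 25.96, 21.44 and 24.02 CPM. Week 3 Fas+/+ libraries held 24.04, 288.8, 477 and 288.2 CPM, and week 3 Fas-/- libraries 267.2, 355.3, 249.4 and 101.2 CPM. All but 1 week 3 library lay far above the naive range, and the exception, Fas+/+ replicate 1, is the library highest in endothelial markers. Summed CPM of 10 profibrotic fibroblast markers moved with it: 17690 to 25720 in naive, 59300 to 72620 in Fas+/+ replicates 2 to 4 and 15050 in replicate 1, and 50390 to 62670 in Fas-/- replicates 1 to 3 and 26560 in replicate 4. Such sums rest mostly on the most abundant markers. By mean log2 CPM over the 10 markers, every week 3 library was above naive: 7.718 to 8.241 in naive, 8.462 to 11.28 in Fas+/+ and 9.368 to 11.05 in Fas-/-. The part of these markers in Timp1 and Mmp14 was not tested. Timp1 rose 12.3-fold in Fas+/+ (log2 fold change 3.62, SE 0.58, adjusted p = 1.4e-04, edgeR quasi-likelihood test with Benjamini-Hochberg adjustment) and 11.1-fold in Fas-/- (3.48, SE 0.58, adjusted p = 3.3e-04). For this rise the exact permutation test gave p = 0.0571 in Fas+/+, where replicate 1 lay within the naive range. In Fas-/-, without overlap, the exact permutation test gave p = 0.0286. At week 6, Fas+/+ libraries held 32.3, 47.6, 69.5 and 47.7 CPM and Fas-/- libraries 58.4, 45.6, 41.9 and 62.6 CPM. Both week 6 groups lay above all naive libraries and, apart from Fas+/+ replicate 1, below all week 3 libraries. The fall from week 3 to week 6 was 2.45 on the log2 scale in Fas+/+ (SE 0.55, adjusted p = 0.00423, edgeR). Leaving out each library in turn kept this edgeR call. The exact permutation test gave p = 0.143 for this fall in Fas+/+, where the groups overlapped. In Fas-/- Timp1 fell by 2.22 (SE 0.55, adjusted p = 0.0196, edgeR), without overlap (exact permutation test, p = 0.0286). The edgeR call in Fas-/- was lost without week 3 replicate 2 (adjusted p = 0.0593) or week 6 replicate 3 (adjusted p = 0.0692). The remaining excess over naive at week 6, 2.25-fold in Fas+/+ and 2.39-fold in Fas-/-, was not called (adjusted p of 0.236 and 0.187, edgeR). Without the 4 libraries highest in endothelial markers, 1 in each bleomycin-instilled group, both were called, at log2 fold changes of 1.18 (adjusted p = 0.00723) and 1.31 (adjusted p = 0.00319).

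**Figure D1:**
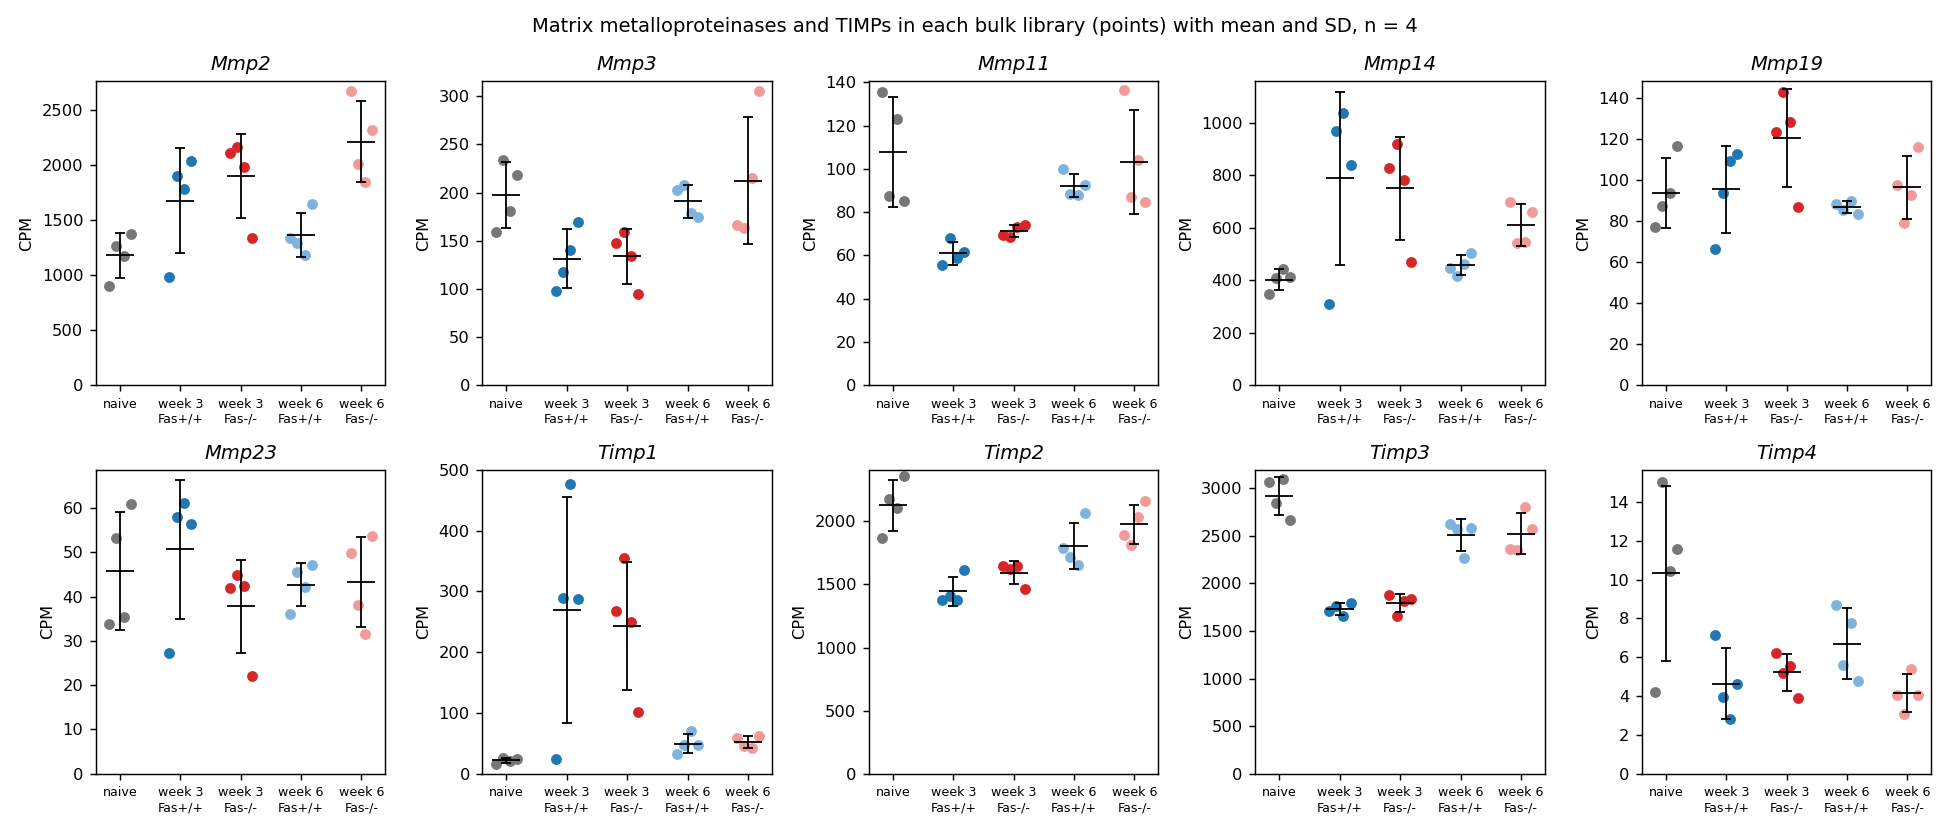
Scaled counts (CPM, y axis from 0) of the 10 genes in the 5 bulk groups (x axis). Points are libraries in replicate order, and the bar and whiskers are the mean and SD of 4. Timp1 stands high at week 3 except in Fas+/+ replicate 1. Mmp14 stands high there except in that library (308.4 CPM) and in Fas-/- replicate 4 (469.8 CPM), which is close to the highest naive library (442.7 CPM). Timp3 and Timp2 stand lowest at week 3, and Mmp2 at week 6 is higher in every Fas-/- library (1845 to 2679 CPM) than in any Fas+/+ library (1187 to 1651 CPM).

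Timp3, an inhibitor that stays bound to the matrix, and Timp2 went the other way. Timp3 was measured at 3068, 2843, 3099 and 2671 CPM in naive libraries. In week 3 Fas+/+ libraries it was 1706, 1763, 1657 and 1797 CPM, and in week 3 Fas-/- libraries 1878, 1655, 1817 and 1832 CPM. No week 3 library reached the lowest naive one, and replicate 1 of Fas+/+ was not apart for this gene. Timp3 fell by 0.75 on the log2 scale in Fas+/+ (SE 0.082, adjusted p = 4.5e-06, edgeR) and by 0.70 in Fas-/- (SE 0.082, adjusted p = 1.9e-05). By week 6 it stood at 2263 to 2622 CPM in Fas+/+ and 2355 to 2803 CPM in Fas-/-, above every week 3 library, a rise of 0.54 (adjusted p = 3.2e-04) and 0.49 (adjusted p = 0.00266, edgeR). All 4 of these calls were kept under all 15 alternatives of each comparison.

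Timp2 lay at 1869 to 2357 CPM in naive, 1373 to 1615 in week 3 Fas+/+ and 1461 to 1648 in week 3 Fas-/- libraries. These groups did not overlap with naive, and Timp2 fell by 0.56 (SE 0.094, adjusted p = 2.0e-04, edgeR) and by 0.42 (SE 0.094, adjusted p = 0.00315). At week 6 it was 1651 to 2065 CPM in Fas+/+ and 1816 to 2163 CPM in Fas-/-, a rise over week 3 of 0.32 (adjusted p = 0.0198) and 0.31 (adjusted p = 0.0473, edgeR). The Fas-/- call was lost in 10 of 15 alternatives, 7 of them with 1 library left out, and the Fas+/+ call in 4 of 15.

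Timp4, an inhibitor known from heart and vessels, was scarce, at 4.22, 15.1, 10.5 and 11.6 CPM in naive libraries and 2.84 to 8.68 CPM in the rest. Week 3 libraries overlapped with the lowest naive library. It was lower than in naive at week 3 in Fas+/+ (log2 fold change -1.14, SE 0.33, adjusted p = 0.00975, edgeR), at week 3 in Fas-/- (-0.99, SE 0.32, adjusted p = 0.0269) and at week 6 in Fas-/- (-1.31, SE 0.33, adjusted p = 0.0232). The Fas-/- calls were kept in 9 of 15 alternatives each, the Fas+/+ call in 14, and the Fas-/- calls, kept in 3 and 2 of 8 fits with a library left out, were lost for instance without naive replicate 2 (-0.75, adjusted p = 0.105, and -1.07, adjusted p = 0.0809). The 7 vascular smooth muscle markers, of the class that held 64.9% to 84.3% of Timp4 UMIs in each single-cell library, summed to 3470 to 5587 CPM in naive, 2232 to 2781 in week 3 Fas+/+ and 1280 to 3220 CPM in week 3 Fas-/- libraries. In bulk, fewer cells of a type and less RNA per cell cannot be told apart.

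Mmp14, the membrane-bound collagenase and activator, was measured at 345.2, 406.7, 442.7 and 411.3 CPM in naive libraries. In week 3 Fas+/+ libraries it was 308.4, 969.4, 1035 and 837.2 CPM, and in week 3 Fas-/- libraries 827.7, 917.1, 780.1 and 469.8 CPM. The same library that was low in Timp1 was low here, below all naive libraries, while the other 7 lay above them. Mmp14 rose 1.96-fold in Fas+/+ (log2 fold change 0.97, SE 0.26, adjusted p = 0.00697, edgeR) and 1.86-fold in Fas-/- (0.90, SE 0.26, adjusted p = 0.0151). The Fas+/+ call held under all 15 alternatives, but the exact permutation test gave p = 0.143. The Fas-/- call, with p = 0.0286 in the permutation test, was lost without naive replicate 1 (adjusted p = 0.056) or week 3 replicate 2 (adjusted p = 0.0576). From week 3 to week 6 it fell by 0.79 in Fas+/+ (SE 0.26, adjusted p = 0.0382, edgeR), a call kept in 6 of 15 alternatives and in 1 of 8 with a library left out, with adjusted p of 0.125 without week 3 Fas+/+ replicate 3 and 0.0671 with a replicate block. For this fall the exact permutation test gave p = 0.143. In Fas-/- the difference was -0.29 (SE 0.26, adjusted p = 0.503), and -0.40 (adjusted p = 0.0206) without the 4 endothelial-rich libraries. Against naive, week 6 Fas-/- libraries were 1.52-fold higher without overlap (adjusted p = 0.191, edgeR) and week 6 Fas+/+ libraries 1.14-fold (adjusted p = 0.763), neither called. The Fas-/- difference was called in 2 of 15 alternatives and the Fas+/+ difference in 0 of 15. Those 2 were the compared groups alone (0.60, adjusted p = 0.00899, edgeR) and the fit without the 4 endothelial-rich libraries (0.65, adjusted p = 0.000733, edgeR).

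Mmp2, a secreted gelatinase, was the most abundant metalloproteinase per length, at 350.1 ± 59.87 CPM per kilobase of exon in naive libraries (SD, n = 4). Timp2 and Timp3 had 546.1 ± 51.91 and 358.6 ± 24.71, and Mmp3 and Mmp14 followed with 109.9 ± 19.01 and 67.36 ± 6.838. Mmp11, Mmp19, Timp1 and Mmp23 lay between 19.59 and 38.78, with overlapping libraries, and Timp4 was lowest at 1.753 ± 0.767. Levels of Mmp2 and Timp3, neighbours in this order, differed by less than their spread.

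In CPM, Mmp2 was 901.6, 1269, 1179 and 1372 in naive libraries. Week 3 Fas+/+ libraries held 984.7, 1906, 1787 and 2042, and week 3 Fas-/- libraries 2113, 2163, 1987 and 1338. One library of each week 3 group, again the endothelial-rich one, fell within the naive range. Mmp2 rose 1.61-fold in Fas-/- (log2 fold change 0.69, SE 0.21, adjusted p = 0.0177, edgeR), a call lost without naive replicate 1 (adjusted p = 0.0792) or week 3 replicate 2 (adjusted p = 0.0642). In Fas+/+ the log2 fold change was 0.51 (SE 0.21, adjusted p = 0.0563), and 0.69 (adjusted p = 0.00349) without replicate 1. At week 6, Fas+/+ libraries held 1338, 1289, 1187 and 1651 CPM and Fas-/- libraries 2679, 2008, 1845 and 2323 CPM. Every Fas-/- library exceeded every naive and every week 6 Fas+/+ library. Mmp2 was 1.88-fold above naive in week 6 Fas-/- (0.91, SE 0.21, adjusted p = 0.0142, edgeR), and 0.79 (adjusted p = 0.0605) without naive replicate 1.

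Mmp3, a stromelysin that also activates other metalloproteinases, and Mmp11, which is released from cells already active, were lower at week 3. Mmp3 lay at 158.5 to 233.8 CPM in naive, 97.93 to 169 in week 3 Fas+/+ and 94.43 to 159.4 CPM in week 3 Fas-/- libraries, so the groups touched. It fell by 0.59 (SE 0.21, adjusted p = 0.0277, edgeR) and by 0.57 (SE 0.21, adjusted p = 0.0433). These calls were kept in 11 and 6 of 15 alternatives, and leaving out naive replicate 2 ended both (adjusted p of 0.0828 and 0.119). The replicate block ended the second (adjusted p = 0.0643). At week 6 the libraries lay at 162.8 to 305.3 CPM, with log2 fold changes against week 3 of 0.54 (SE 0.21, adjusted p = 0.0652) in Fas+/+ and 0.67 (SE 0.21, adjusted p = 0.05005, edgeR) in Fas-/-, neither called by edgeR. In both genotypes every week 6 library was above every week 3 library. DESeq2 called both rises (adjusted p of 0.0478 and 0.0209), and they were called in 4 and 5 of 15 alternatives, so they lie at the threshold.

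Mmp11 was measured at 135.6, 87.4, 123 and 85.1 CPM in naive libraries. It was 55.6, 67.8, 58.8 and 61.4 CPM in week 3 Fas+/+ and 69.5, 68.6, 73.1 and 74.2 CPM in week 3 Fas-/- libraries. The 3 sets did not overlap with one another. Mmp11 fell by 0.82 in Fas+/+ (SE 0.15, adjusted p = 4.0e-04, edgeR) and by 0.59 in Fas-/- (SE 0.15, adjusted p = 0.00616), in all 15 alternatives of each. The 9 lipofibroblast markers, of the mesenchymal class with the highest median level of Mmp11 over single-cell libraries, summed to 10910 to 12960 CPM in naive, 3800 to 6252 in week 3 Fas+/+ and 6091 to 8118 CPM in week 3 Fas-/- libraries, and their part in Mmp11 was not tested. That order of classes is not settled, as given below. Mmp11 rose again by week 6, by 0.60 in Fas+/+ (SE 0.15, adjusted p = 0.00801) and 0.53 in Fas-/- (SE 0.15, adjusted p = 0.0346, edgeR). The first was called in 15 of 15 alternatives and the second in 8, of which 2 left out a library, and its adjusted p was 0.115 without week 6 Fas-/- replicate 1. Part of its exons, 155 bases, is shared with Chchd10 on the other strand.

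Mmp19, a secreted enzyme, and Mmp23 were called in no comparison. Mmp19 lay at 66.19 to 143.1 CPM over all libraries, and its largest difference was a log2 fold change of 0.36 (SE 0.17, adjusted p = 0.111, edgeR) in week 3 Fas-/- against naive. It was called at 0.48 (adjusted p = 0.039) without week 3 Fas-/- replicate 4, at 0.49 (adjusted p = 0.0487) without naive replicate 4, and at 0.48 (adjusted p = 0.00428) without the 4 endothelial-rich libraries. Mmp19 shares 789 exonic bases with Tmem198b on the other strand. Mmp23, a membrane enzyme of unusual structure, lay at 22.17 to 61.16 CPM, and its 2 lowest libraries were week 3 Fas+/+ replicate 1 and week 3 Fas-/- replicate 4.

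Counted together, 2 of the 10 genes were higher and 5 lower at week 3 in Fas+/+ than in naive, where 22.1% of all tested genes were called higher and 19.2% lower. In week 3 Fas-/-, 3 were higher and 5 lower, beside 17.2% and 14.8%. At week 6 none was called in Fas+/+ against naive by edgeR, with 3 at an unadjusted p under 0.05 (Timp1, Timp2 and Timp3) and 1 by DESeq2 (Timp3), beside 3.57% higher and 1.74% lower among all genes. In week 6 Fas-/- against naive, 1 was higher (Mmp2) and 1 lower (Timp4) by edgeR, beside 3.66% and 2.81%. There 5 had an unadjusted p under 0.05 (Mmp2, Mmp14, Timp1, Timp3 and Timp4), and DESeq2 called 3 (Mmp2, Timp3 and Timp4). Timp3 was lower than naive by a like amount in both genotypes at week 6 (log2 fold changes of -0.22 in Fas+/+ and -0.21 in Fas-/-). From week 3 to week 6, 3 were higher and 2 lower in Fas+/+, beside 12.0% and 10.9%, and 3 were higher and 1 lower in Fas-/-, beside 4.48% and 4.54%. Besides Timp1 and Mmp14, some calls against naive had an exact permutation p above 0.05. These were Mmp3 at week 3 (0.0571 in each genotype) and Mmp2 in week 3 Fas-/- (0.0571). Timp4 had 0.0857 in week 3 Fas+/+, 0.114 in week 3 Fas-/- and 0.0571 in week 6 Fas-/-. The comparisons with naive share the naive libraries, and those between weeks share the week 3 and week 6 libraries with them, so their values are not independent. The median log2 fold change of the 10 genes at week 3 against naive was -0.27 in Fas+/+ and -0.35 in Fas-/-, with 0.01 and 0.02 over all genes.

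**Figure D2:**
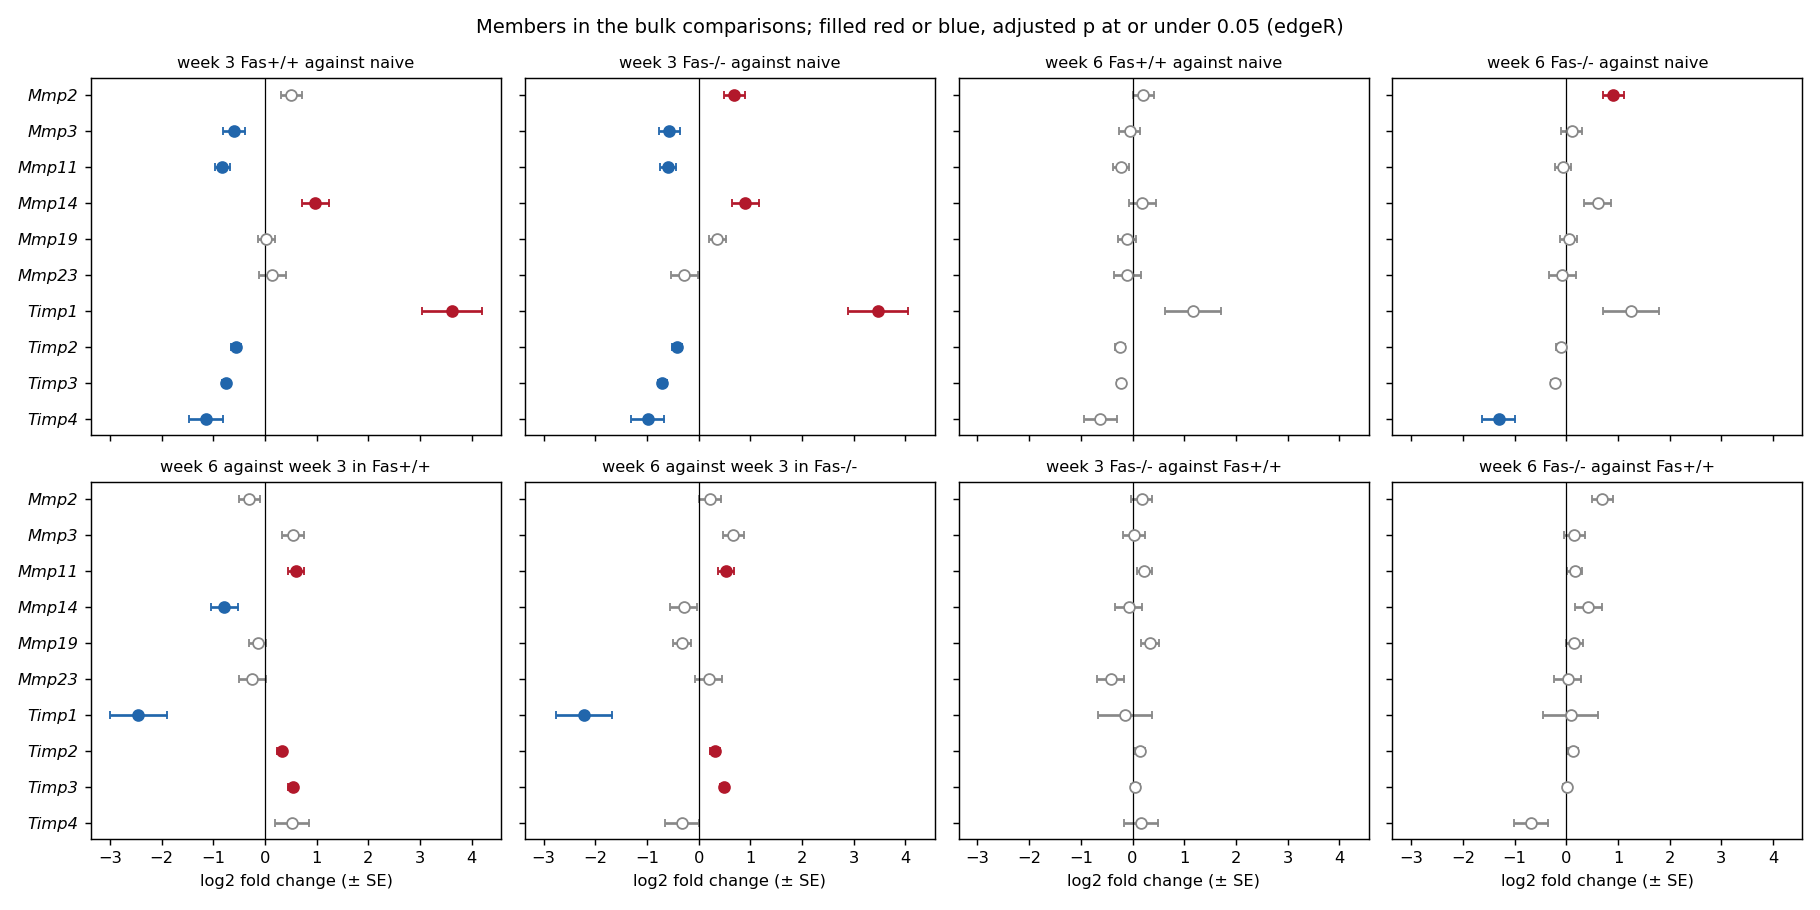
Log2 fold changes (x axis) with SE of the 10 genes (y axis) in 8 bulk comparisons. Filled red and blue points are called higher and lower by edgeR at an adjusted p of 0.05, and open grey points are not called. Timp1 is far to the right in both week 3 panels (3.62 and 3.48) and to the left in both panels of week 6 against week 3, and no point is filled in the 2 panels of Fas-/- against Fas+/+.

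Transcript levels of the 10 genes were compared between Fas-/- and Fas+/+ within each week, a contrast that also holds tamoxifen against corn oil. Matrix turnover itself was not measured. At week 3 none of the 10 genes was called by edgeR, none had an unadjusted p under 0.05, and none was called by DESeq2. Among all genes 0.171% were called. Log2 fold changes ran from -0.42 (Mmp23, SE 0.26) to 0.34 (Mmp19, SE 0.17), and Timp1 had -0.15 (SE 0.52, adjusted p = 0.963, edgeR). Mmp11 alone did not overlap between the groups, at 1 of 10 genes beside 3.92% of all genes.

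At week 6 again none was called, beside 0.0507% of all genes, while Mmp2 and Timp4 had an unadjusted p under 0.05 and DESeq2 called none. Mmp2 was 1.62-fold higher in Fas-/- (log2 fold change 0.70, SE 0.21, adjusted p = 0.247, edgeR; exact permutation p = 0.0286, two-sided, the smallest that 4 against 4 can give). All 4 Fas-/- libraries were above all 4 Fas+/+ libraries. Without the 4 libraries highest in endothelial markers it was called, at 0.71 (adjusted p = 0.0483), and over the 15 alternatives the adjusted p ran from 0.0483 to 0.687. Mmp14 did not overlap either, at 445, 414.6, 462.3 and 503.5 CPM in Fas+/+ and 696, 540.4, 545.4 and 660.3 CPM in Fas-/- (0.42, SE 0.26, adjusted p = 0.805, edgeR). These 2 of 10 genes without overlap stand beside 6.81% of all genes. Timp4 had -0.69 (SE 0.33, adjusted p = 0.618). Timp1, Timp2 and Timp3 had 0.08, 0.13 and 0.01, with SE of 0.53, 0.094 and 0.082. Summed CPM of 10 profibrotic fibroblast markers ran from 25500 to 38160 in week 6 Fas-/- and from 19350 to 26050 in week 6 Fas+/+ libraries. By mean log2 CPM of these markers the ranges were 9.331 to 10 and 8.517 to 9.345, both above naive (7.718 to 8.241). The part of these markers in Mmp2 and Mmp14 was not tested. The interaction of genotype with time was called for none of the 10, beside 0.00634% of all genes, with Mmp2 at 0.52 (SE 0.29, adjusted p = 0.732, edgeR), none at an unadjusted p under 0.05 and none by DESeq2.

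Ratios of counts within a library do not depend on scaling between libraries, and are given as a description. Mmp2 over Timp2 was 0.552 ± 0.047 in naive, 1.16 ± 0.298 in week 3 Fas+/+ and 1.19 ± 0.187 in week 3 Fas-/- libraries (SD, n = 4). At week 6 it was 0.748, 0.752, 0.719 and 0.80 in Fas+/+ and 1.42, 1.11, 0.909 and 1.07 in Fas-/- libraries. Week 6 Fas-/- libraries thus lay within or near the week 3 range, and Fas+/+ libraries between naive and all but the lowest week 3 library. Mmp14 over Timp2 was 0.189 ± 0.015 in naive and 0.546 ± 0.237 and 0.466 ± 0.104 at week 3, then 0.254 ± 0.018 in Fas+/+ and 0.310 ± 0.042 in Fas-/- at week 6, where the groups overlapped. Timp1 over Timp3 was 0.00756 ± 0.00187 in naive and 0.157 ± 0.112 and 0.137 ± 0.0652 at week 3. Week 6 values were 0.0200 ± 0.0077 in Fas+/+ and 0.0209 ± 0.00463 in Fas-/-. In CPM per kilobase of exon, Timp1 was 303.5 ± 209.7 and Timp3 212.6 ± 7.6 in week 3 Fas+/+, with 274 ± 118.7 and 220.4 ± 11.94 in week 3 Fas-/-, whereas naive libraries had 24.59 ± 4.896 and 358.6 ± 24.71. These are ratios of transcripts and not of active enzyme.

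**Figure D3:**
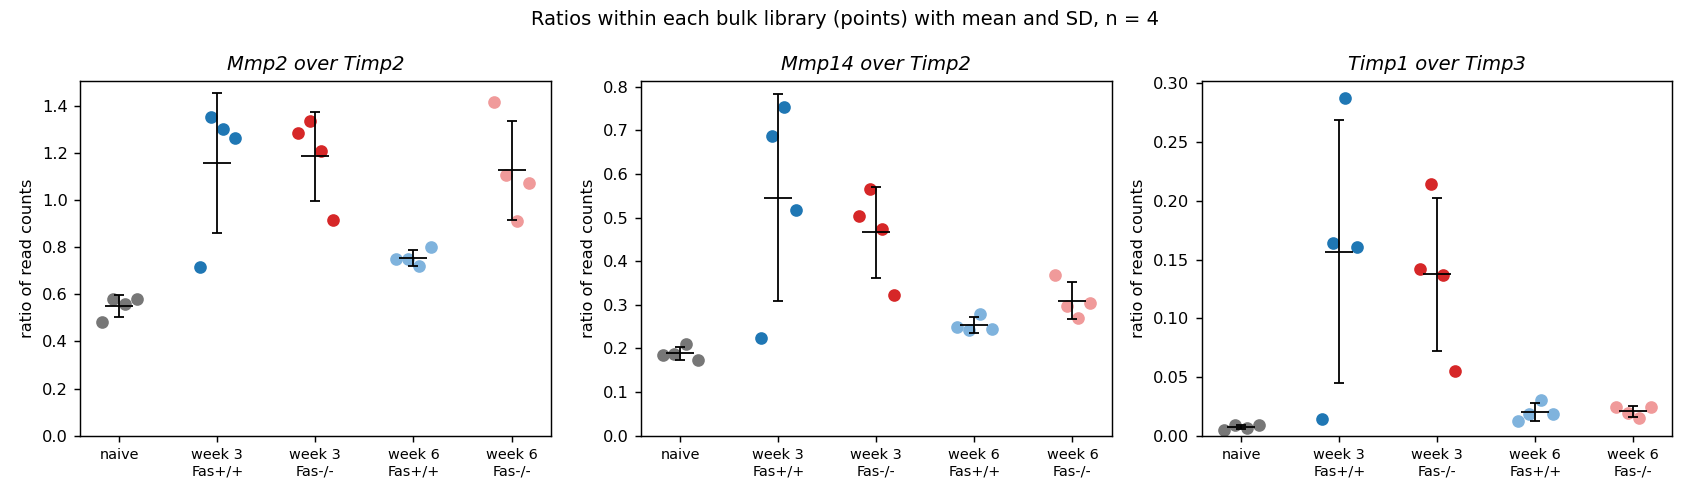
Ratio of read counts (y axis from 0) of Mmp2 to Timp2, Mmp14 to Timp2 and Timp1 to Timp3 in each bulk library (points), with mean and SD of 4, in the 5 groups (x axis). For Mmp2 over Timp2 the week 6 Fas+/+ libraries sit between 0.719 and 0.80 and the week 6 Fas-/- libraries between 0.909 and 1.42.

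Other genes of matrix turnover were read from 6 lists of 76 genes, of which 65 were tested. At week 3, 30 were higher and 15 lower in Fas+/+ than in naive, and 27 were higher and 10 lower in Fas-/-. Over all genes, 22.1% and 19.2% were called in Fas+/+ and 17.2% and 14.8% in Fas-/-. At week 6, 2 were higher and 4 lower in Fas+/+, beside 3.57% and 1.74% of all genes, and 6 higher and 6 lower in Fas-/-, beside 3.66% and 2.81%. From week 3 to week 6, 9 were higher and 23 lower in Fas+/+, beside 12.0% and 10.9%, and 2 higher and 12 lower in Fas-/-, beside 4.48% and 4.54%. None was called between genotypes at either week, nor for the interaction by edgeR.

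Among 10 tested metalloproteinases outside the 10 genes, 7 were higher and 2 lower at week 3 in each genotype, all relative to naive. Over all genes, 22.1% were called higher and 19.2% lower in Fas+/+, and 17.2% and 14.8% in Fas-/-. Mmp10, a stromelysin, rose from 0.0536 to 4.722 CPM in Fas+/+ and 6.095 CPM in Fas-/-, with too few counts in naive for a fold change. Mmp9, a gelatinase of leukocytes, rose by 3.43 (SE 0.65) and 3.58 (SE 0.65) on the log2 scale, and Mmp8, the neutrophil collagenase, by 3.17 (SE 0.64) and 3.20 (SE 0.64). All 3 were scarce, at most 12.86 CPM as a group mean, and hematopoietic markers were higher in the same libraries. All 3 fell between weeks 3 and 6 in both genotypes. Of the 17 listed, 7 (Mmp1a, Mmp1b, Mmp7, Mmp20, Mmp21, Mmp24 and Mmp25) had too few counts to be tested.

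Of 18 ADAMTS proteases tested, 4 were higher and 6 lower at week 3 in Fas+/+, and 2 and 3 in Fas-/-, with a median log2 fold change over the list of -0.05 in Fas+/+ and 0.02 in Fas-/-. Beside the 22.1% and 17.2% of all genes called higher and the 19.2% and 14.8% called lower, these counts are no result about the list. Adamts4, an aggrecanase that cuts versican, rose 7.41-fold and 5.91-fold, while Adamts10, which acts on microfibrils, was 0.521-fold and 0.735-fold, and Adamts8 0.577-fold and 0.689-fold of naive. Of 8 membrane ADAM proteases, 5 were higher and 1 lower in Fas+/+ and 4 and 1 in Fas-/-. Adam12 rose by 3.60 (SE 0.64) and 2.59 (SE 0.62) and Adam10 by 0.56 and 0.37, while Adam33 fell by 1.68 and 1.32. Adam12 fell again by week 6 in both genotypes.

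All 6 tested genes of the plasminogen system, which makes the plasmin that activates several metalloproteinases, were higher at week 3 in Fas+/+ (median log2 fold change 1.71) and 5 of 6 in Fas-/- (median 1.17). Plaur, the receptor of urokinase, rose 7.28-fold and 5.18-fold, and Plat, tissue plasminogen activator, 1.90-fold and 1.93-fold. Plau, urokinase, rose 3.83-fold in Fas+/+ and was 2.01-fold in Fas-/- (adjusted p = 0.0637, edgeR). Of 9 cathepsins and cystatins, 5 were higher in each genotype, and 2 were lower in Fas+/+ and 1 in Fas-/-. Ctsd rose by 0.40 and 0.43, and Ctsl fell by 0.34 and 0.25. Ctss, a leukocyte cathepsin, rose from 0.0739 to 6.61 and 13.2 CPM. Of 14 genes of activation and uptake, 3 were higher and 4 lower in Fas+/+ and 4 and 3 in Fas-/-. Over all genes, 22.1% were called higher and 19.2% lower in Fas+/+, and 17.2% and 14.8% in Fas-/-. Beside these shares, the counts of activation and uptake genes are no result about that list. Furin, which activates the Mmp14 and Mmp11 products, rose by 0.42 and 0.25. Reck, a membrane inhibitor of metalloproteinases, fell by 1.32 (SE 0.17) and 1.20 (SE 0.17), and Mfge8, which takes part in collagen uptake, by 0.63 and 0.54. At week 6 Reck was 0.75 above week 3 in Fas+/+ (adjusted p = 0.00414, edgeR) and 0.35 in Fas-/- (adjusted p = 0.2).

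The genes whose log2 CPM over the 20 libraries was most like each of the 10 were named by Pearson's r, as a description, since the libraries fall into groups that share their level. Timp1 was most like Adamts4 (r = 0.987) and Etv4 (0.984), and Mmp14 most like P4ha3 (0.984), a subunit of prolyl hydroxylase, and Serpine2 (0.982). Mmp2 was most like Ctsk (0.946), a collagen-cutting cathepsin, and Cilp (0.932). Timp3 was most like Slc25a29 (0.964) and Sgpp1 (0.951), Timp2 like Gm2a (0.950) and Ptgis (0.937), and Mmp3 like Prnp (0.885) and Ptgis (0.884). For Mmp11 they were Gm19461 (0.926) and Krba1 (0.905), for Mmp19 Golph3 (0.922) and Plekhg2 (0.904), for Mmp23 Pde1a (0.892) and Fndc1 (0.891), and for Timp4 Mylk4 (0.846) and Pi16 (0.841).

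After filters, 12059 cells of the single-cell libraries were kept: 603 in the naive library, 2664 and 2608 in the libraries labelled week 3 Fas+/+ and Fas-/-, and 3240 and 2944 in those labelled week 6. Of 12811 distinct barcodes, 607 occurred in more than 1 library, and in the naive library these were 378 of 766 barcodes, with a median of 11600 UMIs (unique molecules) against 2946 for the others. In the other 4 libraries the shared barcodes had medians of 765 to 1129 UMIs, against 5539 to 8872. Of the 603 naive cells kept, 350 carried such a barcode, and all but 12 of these held their most UMIs in the naive library. Keeping a shared barcode only where it held most UMIs moved 1 of 530 levels beyond its interval, and leaving all of them out moved 42 of 490. Clusters were made without the 10 genes, the lists above and the markers, and named "-like" from markers. Names were rebuilt here and may differ from those of the study. Levels are UMIs per 10000 UMIs, with exact 95% Poisson intervals that cover counting error only, in classes with at least 20 cells. No test between libraries was made.

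**Figure D4:**
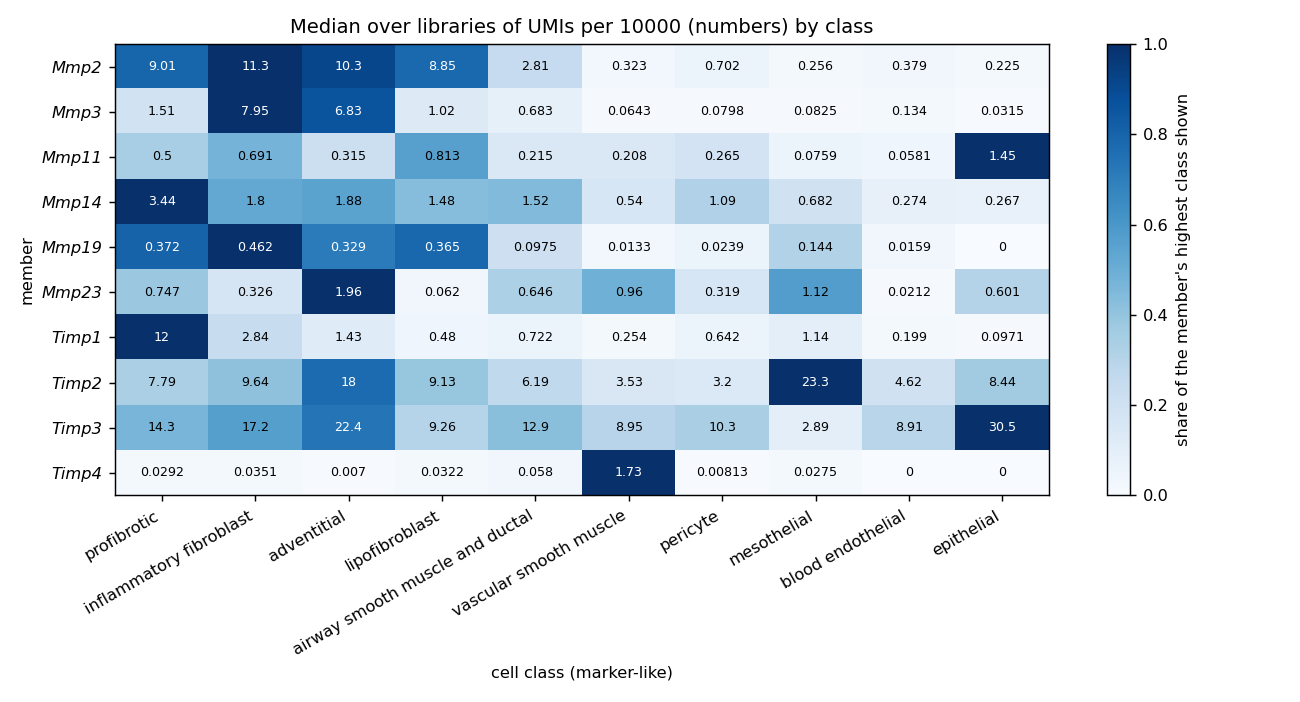
Median over single-cell libraries of UMIs per 10000 (numbers) for the 10 genes (y axis) in 10 cell classes (x axis), with shading as the share of each gene's highest class. Timp4 is dark in 1 class only, vascular smooth muscle-like (1.73), while Timp3 is spread widely and is highest in epithelial-like cells (30.5).

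The 10 genes fell into several distributions over cell classes. Among the 10 classes compared, Timp1 and Mmp14 were highest in profibrotic-like cells, which carry markers such as Cthrc1 and Postn, with medians over libraries of 12.03 and 3.44. Lymphatic endothelial-like cells, which reached 20 cells in the 2 libraries labelled week 6 only, had more Mmp14 still, at 6.82 (49 cells) and 4.78 (20 cells). Mmp2, Mmp3 and Mmp19 were highest in inflammatory fibroblast-like cells, at 11.3, 7.95 and 0.462. Adventitial-like cells followed for Mmp2 (10.3) and Mmp3 (6.83). They led the named classes for both when at least 1000 genes a cell were required. In that setting the largest cluster, of 1328 cells with Mmp3 among its top genes, was unnamed and so left out of the ranking. The order of these classes is not settled. For Mmp19 profibrotic-like cells followed, at 0.372. Mmp23 was highest in adventitial-like (1.96) and Timp2 in mesothelial-like cells (23.3). Timp3 (30.5) and Mmp11 (1.45) were highest in epithelial-like cells, which the sort was meant to remove and which reached 20 cells in 3 libraries. Among mesenchymal classes, Timp3 was highest in adventitial-like (22.4) and Mmp11 in lipofibroblast-like cells (0.813). Erythroid-like cells, which should hold little of either, had 0.224 to 1.68 for Mmp11 and 0.174 to 0.437 for Mmp19 over libraries. The Mmp11 range spans that of lipofibroblast-like cells (0.658 to 1.11), and the Mmp19 range overlaps that of inflammatory fibroblast-like cells (0.430 to 0.705). The order of classes for Mmp11 and Mmp19 is therefore not settled either.

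Timp4 was highest in vascular smooth muscle-like cells, at 1.88, 1.49, 1.54, 2.28 and 1.73 UMIs per 10000 in the naive library and those labelled week 3 Fas+/+, week 3 Fas-/-, week 6 Fas+/+ and week 6 Fas-/-. In the other classes of the map it was at most 0.0838, and among those left out of the map at most 0.327, in an unnamed cluster. After each cell was thinned to 3000 UMIs, 20.9% to 36.7% of vascular smooth muscle-like cells had a Timp4 UMI. The level in the library labelled week 6 Fas+/+ (95% interval 2.03 to 2.56) was above that labelled week 3 Fas+/+ (1.29 to 1.72), and the naive interval of 1.47 to 2.38 overlapped both.

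In profibrotic-like cells Timp1 was 3.83 (95% interval 3.56 to 4.12) and 4.34 (4.06 to 4.64) in the libraries labelled week 3 Fas+/+ and Fas-/-. It was 19.7 (19.38 to 20.04) and 22.5 (22.2 to 22.8) in those labelled week 6. The libraries labelled week 6 were thus far above those labelled week 3 in both genotypes, and these cells also had median depths of 24640 and 26880 UMIs there, against 7790 and 12520. The class pools clusters 5 and 15, and Timp1 was among the top 10 genes of cluster 15. Cluster 15 held 34 and 77 cells in the libraries labelled week 3 Fas+/+ and Fas-/-, and 92 and 133 in those labelled week 6. Cluster 5 held 105 and 172, then 156 and 203. The part of this mix in Timp1 was not tested. Of classes that should hold little of it, blood endothelial-like cells had 0.0337 to 0.344, with median depths of 3538 to 6249 UMIs. Erythroid-like cells, of 1404 to 2205 UMIs, had 1.12 and 1.02 in the libraries labelled week 3 and 7.80 and 8.98 in those labelled week 6. Thinned to 3000 UMIs, 73.1% and 79.0% of profibrotic-like cells in the libraries labelled week 6 had a Timp1 UMI and 35.2% and 32.6% in those labelled week 3, beside 1.20% to 11.2% of blood endothelial-like cells.

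Inflammatory fibroblast-like cells had Timp1 at 1.18, 2.84, 1.64, 12.7 and 9.88 in the same order of libraries from naive on, and lipofibroblast-like cells at 0.0858, 0.480, 0.421, 1.44 and 1.26. The 2 libraries labelled week 6 were highest in each of these classes, as they were in adventitial-like cells (3.65 and 3.74). The adventitial-like and lipofibroblast-like levels in the libraries labelled week 6 lay below those of erythroid-like cells there and are not read as expression or as a difference. In the libraries labelled week 6, inflammatory fibroblast-like cells lay above erythroid-like cells by a smaller margin than profibrotic-like cells did. Profibrotic-like cells gave 21.7% and 40.7% of all Timp1 UMIs in the libraries labelled week 3 and 55.8% and 65.4% in those labelled week 6, from 5.22%, 9.55%, 7.65% and 11.4% of the cells. Without barcodes found in more than 1 library, profibrotic-like levels were 4.03, 3.86, 18.6 and 22.02.

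Mmp14 in profibrotic-like cells was 1.96 (1.77 to 2.17), 2.25 (2.05 to 2.47), 5.06 (4.89 to 5.23) and 4.62 (4.48 to 4.76) in the 4 libraries after naive. In other classes, inflammatory fibroblast-like cells had 1.12 to 3.09, adventitial-like cells 1.51 to 2.68, lipofibroblast-like cells 0.730 to 1.86 and pericyte-like cells 0.887 to 2.30. Erythroid-like cells, which should hold little of it, had 0.837 to 2.83. That range overlaps each of these, and also the profibrotic-like levels in the libraries labelled week 3. Whether Mmp14 is less tied to 1 class than Timp1 is therefore not read from these levels. Profibrotic-like cells gave 12.2% and 18.7% of its UMIs in the libraries labelled week 3 and 41.6% and 44.2% in those labelled week 6. The mix of clusters in this class, given above, differed between libraries, and its part in Mmp14 was not tested.

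Mmp2 differed from both, since profibrotic-like cells had similar levels in all 4 libraries, at 9.07, 10.0, 8.94 and 7.90. The larger differences were in lipofibroblast-like cells, at 3.33 (3.07 to 3.60) in the naive library, 4.87 (4.71 to 5.04) and 8.85 (8.59 to 9.13) in the libraries labelled week 3 Fas+/+ and Fas-/-, and 9.44 (9.17 to 9.72) and 10.2 (9.91 to 10.4) in those labelled week 6. The Fas-/- library was above the Fas+/+ library at either week label in this class, and in inflammatory fibroblast-like cells (11.3 against 8.68 at the week 3 label, and 12.4 against 12.1 at the week 6 label, where intervals overlapped). In profibrotic-like cells at the week 6 label it was below, at 7.90 (7.72 to 8.09) against 8.94 (8.72 to 9.17). With 1 library for each condition, these differences have no replicate check. The lipofibroblast-like class also pools clusters whose mix differed between libraries. They held 129, 35 and 22 cells in the naive library. In those labelled week 3 they held 341, 214 and 112 (Fas+/+) and 279, 239 and 220 (Fas-/-). The part of this mix in Mmp2 was not tested. Pericyte-like, mesothelial-like and vascular smooth muscle-like cells had at most 1.02. Erythroid-like cells had 3.24 to 4.78, a range that holds the lipofibroblast-like level of the naive library.

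**Figure D5:**
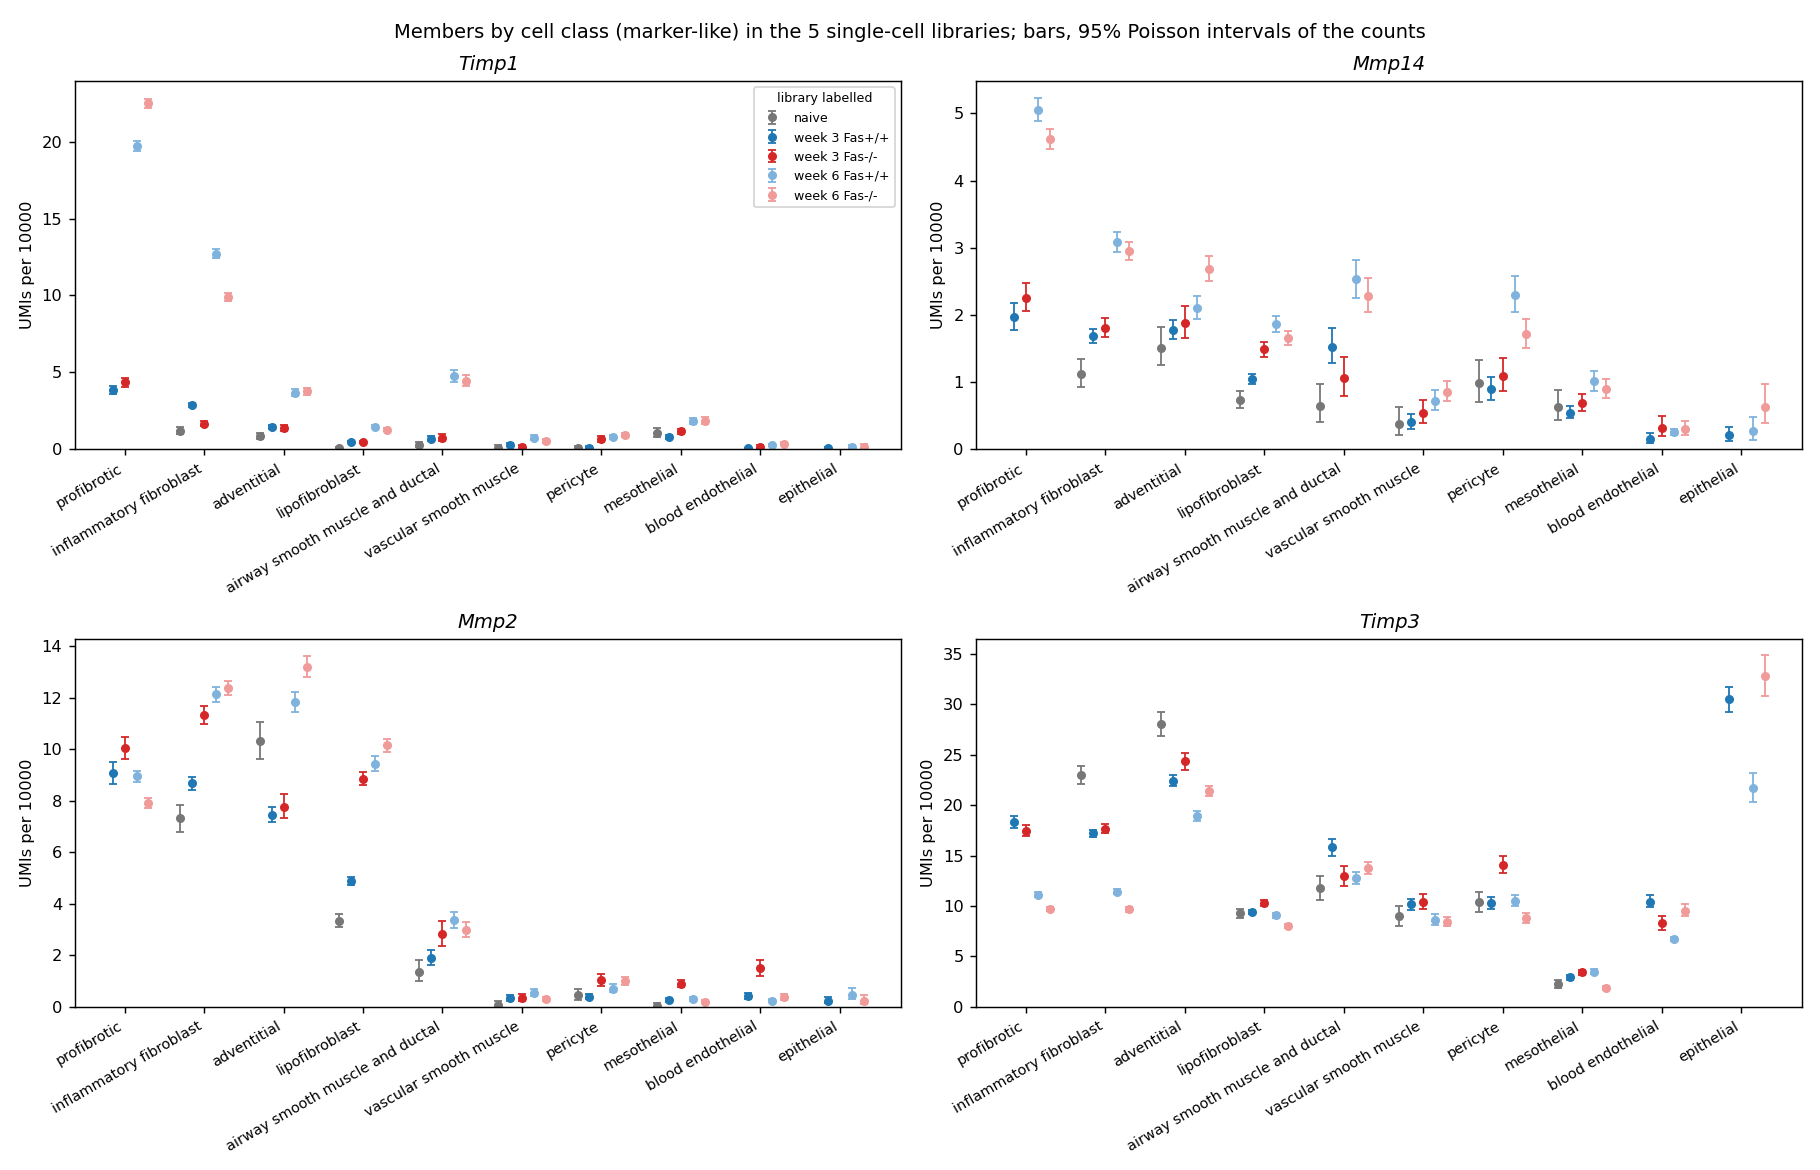
UMIs per 10000 (y axis from 0) of Timp1, Mmp14, Mmp2 and Timp3 in 10 cell classes (x axis) of the 5 single-cell libraries, coloured by their labels, with 95% Poisson intervals. The libraries labelled week 6 stand highest for Timp1 in profibrotic-like cells (19.7 and 22.5) and lowest for Timp3 in inflammatory fibroblast-like cells (11.4 and 9.68).

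Timp3 was lower in the libraries labelled week 6 in some of the classes where Timp1 was higher. Inflammatory fibroblast-like cells had 22.96, 17.2, 17.7, 11.4 and 9.68 from the naive library on, and profibrotic-like cells 18.4 and 17.5 in the libraries labelled week 3 and 11.1 and 9.73 in those labelled week 6. Adventitial-like cells went from 28.1 in the naive library to 18.9 and 21.4 in those labelled week 6, whereas lipofibroblast-like cells had 8.02 to 10.3 throughout. Timp2 varied less, at 15.4 to 21.02 in adventitial-like, 8.58 to 9.77 in lipofibroblast-like and 7.36 to 8.84 in profibrotic-like cells, and 21.1 to 30.2 in mesothelial-like cells. Mesothelial markers summed to 481.9 to 1026 CPM in naive, 247.6 to 503.1 in week 3 Fas+/+ and 358.1 to 406.3 CPM in week 3 Fas-/- bulk libraries, and the part of those cells in bulk Timp2 was not tested. Mmp3 in inflammatory fibroblast-like cells was 10.6, 6.86, 8.82, 7.95 and 5.44 and showed no common order of the week labels in the 2 genotypes.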

How the data were processed

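Lung cells negative for CD45, CD31 and CD326 were profiled by poly(A) bulk RNA-seq (20 libraries) and by droplet single-cell RNA-seq (5 libraries). For bulk, reads had been trimmed (skewer) and aligned to GRCm38 (Hisat2) upstream, and the authors deposited raw counts per Ensembl (release 84) gene from htseq-count. For single cells the authors deposited Cell Ranger counts of UMIs on GRCm38. The deposited normalized bulk table was not used.

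Bulk counts were filtered with filterByExpr, scaled by TMM and tested with the edgeR 4.0.16 quasi-likelihood test over all 5 groups (R 4.3.3), with Benjamini-Hochberg adjustment over 15773 genes and calls at an adjusted p of 0.05. CPM are TMM-scaled. Exact permutation tests were two-sided. DESeq2 1.42.0, RLE scaling, total counts alone, no filter, the compared groups alone, a replicate block, each library left out, and the library highest in endothelial markers left out of each bleomycin-instilled group were alternatives. Totals were 11819700 to 25189096 counts a library, and the scarcest of the 10 genes, Timp4, had 32 to 377 counts. Gene models were from GENCODE M21 and promoters from RefSeq, both of GRCm38. Scripts were tested on simulated data.

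Barcodes outside 200 to 7500 genes, or over 20% mitochondrial UMIs, were dropped, and the others were normalized by SCTransform, integrated on 3000 features and 20 components and clustered at a resolution of 0.8 (Seurat 5.3.0). Clusters were named where at least 3 markers, and the mean of the list, were at least 2-fold above the other cells. No other list could have more markers among the top 10 genes of the cluster. Shallow clusters with no marker of the list among those genes stayed unnamed. One such cluster, number 11, had 9 of 9 blood endothelial markers up at 0.275 of the median depth, and so is not in the blood endothelial-like class. No doublet caller was run. Median depth was 5768 to 8896 UMIs.

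The 10 genes, the lists and the markers were chosen with earlier results of these data known. Other genes named were, for each list, the 3 with the smallest adjusted p among those called at week 3 in Fas+/+ against naive, any called between genotypes, the synapsin genes that hold Timp genes, and the 2 most correlated genes of each of the 10. Some lists were written for this report and others taken from earlier work on the data. Same-numbered libraries of different groups were checked for pairing: 14 of 40 correlations of their deviations were over 0.1 (range -0.464 to 0.403). Differently numbered libraries were not compared in this way, so the check cannot exclude pairing. Numbers were not treated as pairs in the main fit. Handling of shared barcodes was added after seeing the data.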

Additional observations from a re-analysis of the deposited data

Results flagged for a closer look

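In each bulk group of 4 libraries, the gap of the highest or lowest library to its neighbour was compared with the range of the group for each of the 10 genes, at Dixon's 95% limit for 4 values. Of 50 sets, 5 passed, where chance passes about 1 in 20. Mmp23 was 27.28 CPM in week 3 Fas+/+ replicate 1, with 56.41 to 61.16 in the others, and 22.17 CPM in week 3 Fas-/- replicate 4, with 41.86 to 44.82 in the others. These are the 2 libraries highest in endothelial markers of their groups. Timp2 was 1461 CPM in the same week 3 Fas-/- replicate 4, with 1623 to 1648 in the others, and 1615 CPM in week 3 Fas+/+ replicate 4, with 1373 to 1410 in the others. Timp3 was 2263 CPM in week 6 Fas+/+ replicate 3, with 2568 to 2622 in the others. Without replicate 4, Mmp23 and Timp2 stayed uncalled between genotypes at week 3.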

How the results depend on the processing

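Over 15 alternatives for each comparison of 2 groups and 23 for the interaction, 1340 values of single genes kept their call, 63 lost and 27 gained one, and no called value changed sign. Uncalled values near 0 did change sign, such as Timp2 in the interaction (7 of 23) and Mmp11 in week 6 Fas-/- against naive (5 of 15). In week 3 Fas-/- against naive, 8 genes were called, and 5 to 7 with 1 library left out. In week 6 Fas+/+ against naive, 0 became 1 with DESeq2 (Timp3), 1 with the compared groups alone (Timp1) and 1 without the 4 endothelial-rich libraries (Timp1). In week 6 Fas-/- against naive, 2 became 4 with the compared groups alone, 4 without the 4 libraries, and 1 to 2 with 1 left out. Mmp14 and Timp1 were the genes gained with the compared groups alone and without the 4 libraries. From week 3 to week 6, Fas+/+ had 5, and 3 to 6 with 1 left out, and Fas-/- had 4, 2 with the compared groups alone, and 1 to 5 with 1 left out. Between genotypes at week 6, 0 became 1 (Mmp2) without the 4 libraries. The replicate block ended 2 calls, Mmp3 in week 3 Fas-/- against naive (-0.54, adjusted p = 0.0643) and Mmp14 between weeks in Fas+/+ (-0.75, adjusted p = 0.0671), and changed no other call of these genes. The cause was not tested. Over all genes, calls between genotypes at week 3 went from 26 higher and 1 lower to 542 and 747 without the 4 libraries. Among named classes, the one with the highest median was the same for 9 of 10 genes at a clustering resolution of 0.4. It was the same for 8 with at least 1000 genes a cell, where the largest cluster was unnamed and not ranked, and for 9 without shared barcodes. Levels in single classes and libraries moved more: among those with at least 20 UMIs, 47 of 375 moved by over 1.5 times with at least 1000 genes a cell (ratios over all levels 0.0966 to 5.79) and 29 of 378 at a resolution of 0.4 (0.113 to 2.62). Single-cell conditions have 1 library each, so only counting error is known.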
